A study of Homo sapiens with 22 samples.

Results

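The WNT receptors described here are the 7 Frizzled genes FZD1, FZD2, FZD3, FZD5, FZD6, FZD7 and FZD8 and the 2 co-receptor genes LRP5 and LRP6. They were chosen by name, as receptors of the WNT pathway, and are 9 of the 37908 genes in the count table. RNA-seq was done on H1299 cells, derived from a non-small cell carcinoma of the human lung, in a form that carries a doxycycline (DOX)-inducible shRNA against BRCA2. BRCA2-proficient cells were grown without DOX and BRCA2-deficient cells with DOX at 2 µg/mL for 3 days. All groups received an siRNA, either a control or one against β-catenin (siβ-catenin), before the GSK3 kinase inhibitor LY2090314 (GSK3i), which was given at 250 nM for 24 h or left out.

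There were 22 libraries in 8 groups. In BRCA2-proficient cells, 2 libraries were untreated (control siRNA, no GSK3i), 3 received GSK3i, 2 received siβ-catenin and 3 received both. In BRCA2-deficient cells each of these 4 groups had 3 libraries. All groups share 1 cell line and its shRNA construct, so the deficient state is a knockdown that comes with DOX, and an effect of DOX itself cannot be told apart from loss of BRCA2. The labels do not say whether libraries of a group came from separate cultures, whereas the study's figure legends speak of independent experiments.

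Frizzled proteins are multi-pass membrane receptors that bind WNT ligands through an extracellular cysteine-rich domain. In canonical signalling a WNT ligand brings a Frizzled together with LRP5 or LRP6, single-pass co-receptors whose tails bind Axin, and the complex that marks β-catenin for destruction is then disabled. GSK3 phosphorylates β-catenin within that complex, so a GSK3 inhibitor stabilises β-catenin downstream of the receptors. β-catenin then acts with TCF/LEF factors on genes such as AXIN2, while the E3 ligases ZNRF3 and RNF43 remove Frizzleds from the cell surface. FZD3 and FZD6 are known mostly for planar cell polarity, and FZD7 is a widely used receptor in epithelial stem cells and carcinomas.

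Promoter windows are shown for 3 receptors whose transcripts moved with GSK3i in the results that follow, FZD1 and LRP5 (lower) and FZD5 (higher). Of the 9 receptors, 4 had an entry among the RefSeq promoter windows used here (GRCh38.p14), which run from 250 bases before to 50 bases after the gene start. Those without an entry are FZD2, FZD3, FZD6, FZD7 and LRP6. The sequences are written 5′ to 3′ on the strand of the gene, and capitals mark the TCF/LEF core (CTTTGA or CTTTGT) and the GC box (GGGCGG, which reads CCGCCC on the other strand), both searched on both strands.
FZD1, chr7:91264183-91264482, plus strand: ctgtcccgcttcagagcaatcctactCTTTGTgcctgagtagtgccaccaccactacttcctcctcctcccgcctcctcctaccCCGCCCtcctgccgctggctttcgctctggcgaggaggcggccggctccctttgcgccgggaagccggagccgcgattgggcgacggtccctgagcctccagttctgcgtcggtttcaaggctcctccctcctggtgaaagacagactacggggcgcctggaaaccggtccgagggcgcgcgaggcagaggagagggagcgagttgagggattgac
LRP5, chr11:68312341-68312640, plus strand: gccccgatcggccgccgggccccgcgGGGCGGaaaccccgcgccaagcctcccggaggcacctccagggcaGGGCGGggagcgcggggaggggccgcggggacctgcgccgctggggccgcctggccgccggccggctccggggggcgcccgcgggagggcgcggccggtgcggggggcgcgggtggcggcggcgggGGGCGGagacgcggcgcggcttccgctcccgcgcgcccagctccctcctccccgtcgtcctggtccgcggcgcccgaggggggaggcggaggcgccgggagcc
FZD5, chr2:207769857-207770156, minus strand: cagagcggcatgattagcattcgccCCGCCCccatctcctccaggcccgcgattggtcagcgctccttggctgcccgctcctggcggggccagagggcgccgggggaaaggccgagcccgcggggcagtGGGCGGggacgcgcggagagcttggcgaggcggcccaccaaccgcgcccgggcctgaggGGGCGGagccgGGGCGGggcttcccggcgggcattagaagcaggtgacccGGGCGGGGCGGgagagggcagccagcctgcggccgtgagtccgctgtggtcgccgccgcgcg

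FZD1 was the only one of the 4 windows with a TCF/LEF core, 1 copy that begins 224 bases before the start, and 26.2% of the 35116 promoter windows held at least 1. The GC box was present 6 times in FZD5 (the last 2 copies share 1 base), 3 times in LRP5, 3 times in FZD8 and 1 time in FZD1, against 45.0% of all windows with at least 1. FZD8 alone held a TATA box (TATAAA), beginning 29 bases before the start, as did 11.5% of all windows. The LRP5 window was 86.7% G and C, above 99.9% of all windows, and the FZD5 window was 77.0%. These letter matches describe the windows, and binding was not measured.

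Libraries held 18.9 to 29.3 M counts. BRCA2 itself had 514 to 1111 normalised counts in the 10 proficient libraries and 71.4 to 225 in the 12 deficient ones, with no overlap. CTNNB1, which encodes β-catenin, had 5206 to 8669 normalised counts with control siRNA and 977 to 2217 with siβ-catenin. The keratins KRT8 and KRT18 and the mesenchymal marker VIM were abundant (lowest library at 2037, 5068 and 12640 normalised counts), EPCAM did not exceed 22.2, NKX2-1 lay between 19.8 and 108, and SFTPC and the leukocyte marker PTPRC did not exceed 1.51 and 1.57.

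In all, 3 libraries of siβ-catenin-treated BRCA2-proficient cells went against their labels or stood apart, and several receptor results rest on them. A response score was taken as the median log2 difference from proficient untreated cells over 582 genes that GSK3i lowered by more than 1 log2 unit in BRCA2-deficient cells and that had a mean of at least 100 normalised counts, with the receptors themselves left out. The score was -1.39 to -1.29 in the proficient GSK3i libraries. It was -1.09 in the library labelled proficient siβ-catenin replicate 2, which received no GSK3i by its label, and 0.03 in the library labelled proficient GSK3i + siβ-catenin replicate 2, which did. The library labelled proficient siβ-catenin replicate 3 was between them at -0.42. The other 2 libraries with both agents scored -1.09 and -1.07, and in deficient cells, over 546 genes lowered in proficient cells, siβ-catenin alone gave -0.11 to 0.16 and both agents gave -0.98 to -0.80. AXIN2 stood at 67.2 normalised counts in the first of the doubted libraries and at 73.1 in the second, against 117 and 145 in the other proficient libraries with both agents, 1027 to 1153 with GSK3i alone, 65.0 in proficient siβ-catenin replicate 3 and 72.3 and 82.4 in untreated cells. By AXIN2, both of these libraries thus lie with the proficient libraries that received no GSK3i, which for the first one is what its label says. No library was reassigned. Tests between groups and correlations that rest on the 2 libraries numbered 2 are given with them, and also without them for the genes singled out below. Levels and ranges include them.

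These are bulk libraries, in which fewer cells that express a gene and less of its RNA per cell cannot be told apart. All 9 receptors were detected in every library, from 36.2 normalised counts for FZD8 in one deficient GSK3i library to 2152 for FZD6 in the library labelled proficient siβ-catenin replicate 2. Counts are normalised with DESeq2 size factors, and levels of different genes were compared only after division by the exon length in kb (GRCh37, GENCODE). FZD6 had the highest mean level per kb in all 8 groups, with group means of 325 to 459 normalised reads per kb. Its libraries overlapped those of FZD2 in deficient untreated cells and in deficient cells with siβ-catenin alone (means of 396 and 350 in the latter). FZD8 and FZD3 were the lowest 2 in each group, with means between 8.67 (FZD3) and 20.5 (FZD8) per kb. Across all libraries the mean level of FZD6 was 35.9 times that of FZD3.

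In proficient untreated cells the order per kb was FZD6 (382 ± 17.5, SD, n = 2), FZD2 (237 ± 10.1), FZD7 (186 ± 18.8), LRP6 (168 ± 19.5), FZD1 (158 ± 3.37), LRP5 (126 ± 5.63), FZD5 (41.9 ± 10.2), FZD8 (14.7 ± 0.869) and FZD3 (10.9 ± 1.32). FZD7 and LRP6 overlapped, as did LRP6 and FZD1, so those neighbours in the order are not separated by their spread. In deficient untreated cells FZD2 (298 ± 55.6, SD, n = 3) overlapped FZD6 (325 ± 72.4), and LRP5, FZD7, FZD1 and LRP6 formed an overlapping middle at 117 to 136 per kb. Under GSK3i the receptor next to FZD6 was LRP6 at 154 ± 41.6 (n = 3) in proficient cells and FZD2 at 153 ± 17.01 (n = 3) in deficient cells, but LRP6 and FZD2 overlapped in both. FZD5 overlapped its neighbours FZD1 and FZD7 there, at 70.7 ± 6.89 against 78.2 ± 7.78 and 61.1 ± 5.31 per kb in deficient cells.

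**Figure D1:**
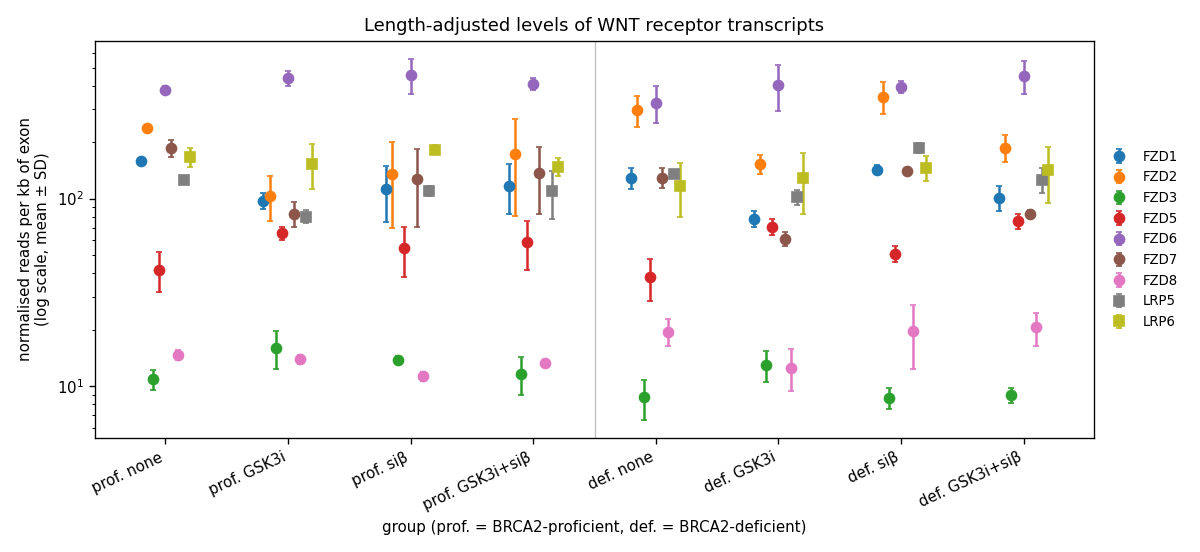
Mean normalised reads per kb of exon (log axis, bars ± SD over 2 or 3 libraries) for the 9 WNT receptors in the 8 groups. FZD6 lies highest in each group, at 325 to 459, and FZD8 and FZD3 lie lowest, at 20.5 or less.

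GSK3i lowered FZD2, FZD7 and FZD1 and raised FZD5 in both BRCA2-proficient and BRCA2-deficient cells, and lowered LRP5 past both criteria in proficient cells. A gene was called when its adjusted p (DESeq2 Wald test, Benjamini-Hochberg over all genes tested) was under 0.05 and its log2 fold change exceeded 0.5 in size. In proficient cells 5 of 9 receptors were called, 1 higher and 4 lower, against 26.1% of all genes tested (11.8% called higher and 14.2% lower). In deficient cells 4 of 9 were called, 1 higher and 3 lower, against 25.4% of all genes (11.6% higher, 13.8% lower). The median log2 fold change of the 9 receptors was -0.14 in proficient and -0.42 in deficient cells, and that of all genes was -0.002 and 0.025.

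FZD2 (ENSG00000180340, chromosome 17, 42634852 to 42638630, GRCh37) is a single-exon Frizzled that takes part in both canonical and non-canonical signalling, and it had the widest range of the 9, with 5.61 times between its lowest and highest library. It stood at 868 and 922 normalised counts in proficient untreated libraries and at 497, 395 and 285 with GSK3i. In deficient cells it was at 1281, 1207 and 885 untreated and at 653, 547 and 537 with GSK3i. The treated libraries lay below all untreated ones in both backgrounds. The log2 fold change was -1.21 ± 0.21 (SE, adjusted p = 1.3e-07, DESeq2) in proficient and -0.96 ± 0.20 (adjusted p = 2.5e-05) in deficient cells.

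FZD7 (ENSG00000155760, chromosome 2, 202898578 to 202903164) is also a single-exon gene. Its proficient untreated libraries had 915 and 793 normalised counts and its GSK3i libraries 409, 419 and 315. Deficient untreated libraries had 528, 670 and 581, and GSK3i libraries 293, 295 and 252. Groups did not overlap in either background. The log2 fold changes were -1.18 ± 0.18 (adjusted p = 1.5e-09, DESeq2) and -1.08 ± 0.18 (adjusted p = 6.9e-08).

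FZD1 (ENSG00000157240, chromosome 7, 90893748 to 90900641), the receptor closest to FZD7 and FZD2 in sequence, fell by a smaller amount. It had 1106 and 1074 normalised counts in proficient untreated libraries against 644, 621 and 748 with GSK3i. In deficient cells it had 768, 980 and 923 untreated and 485, 540 and 592 with GSK3i. No treated library reached an untreated one, and the log2 fold changes were -0.72 ± 0.15 (adjusted p = 2.2e-05, DESeq2) and -0.72 ± 0.18 (adjusted p = 0.00038). Reads could hardly be confused between FZD1 and FZD2, since 0.189% of the 75-base stretches of FZD2 transcripts also occur in FZD1.

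LRP5 (ENSG00000162337, chromosome 11, 68080059 to 68216743) is a co-receptor that hands the signal from the Frizzled to Axin. It was at 757 and 806 normalised counts in proficient untreated libraries and at 459, 536 and 493 with GSK3i, a log2 fold change of -0.67 ± 0.16 (adjusted p = 0.00016, DESeq2). In deficient cells it was at 860, 808 and 855 untreated and at 564, 674 and 649 with GSK3i. The deficient groups did not overlap and the adjusted p was 0.027, but the log2 fold change of -0.42 ± 0.15 was short of the size criterion. LRP6 (ENSG00000070018, chromosome 12, 12268959 to 12419978), its homologue and the more abundant of the 2 per kb in 6 of 8 groups, had log2 fold changes of -0.14 ± 0.20 (adjusted p = 0.63) and 0.13 ± 0.32 (adjusted p = 0.81).

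FZD5 (ENSG00000163251, chromosome 2, 208627322 to 208634630, minus strand) was the only receptor called higher. Proficient untreated libraries had 244 and 346 normalised counts and GSK3i libraries 429, 447 and 503. Deficient untreated libraries had 199, 273 and 334, and GSK3i libraries 442, 517 and 533. Treated and untreated libraries were apart in both backgrounds, with log2 fold changes of 0.62 ± 0.20 (adjusted p = 0.0071, DESeq2) and 0.89 ± 0.23 (adjusted p = 0.00086). The proficient call depended on 1 library. Without proficient untreated replicate 2 the log2 fold change was 0.40 (adjusted p = 0.28).

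FZD3, FZD6 and FZD8 were not called with GSK3i. FZD3 (ENSG00000104290, chromosome 8, 28351722 to 28431784) had log2 fold changes of 0.54 ± 0.25 (adjusted p = 0.076, DESeq2) in proficient and 0.57 ± 0.27 (adjusted p = 0.10) in deficient cells. Its proficient libraries were at 137 and 163 untreated and at 193, 189 and 280 with GSK3i, so that all treated libraries were higher, whereas in deficient cells the untreated maximum of 147 almost met the treated minimum of 149. With replicate number as a block the deficient change of FZD3 became a call (log2 fold change 0.58, adjusted p = 0.022). It was also a call with one model over all groups (0.57, adjusted p = 0.042). FZD6 (ENSG00000164930, chromosome 8, 104310661 to 104345094) changed by 0.18 ± 0.14 (adjusted p = 0.32) and 0.32 ± 0.26 (adjusted p = 0.39), and FZD8 (ENSG00000177283, chromosome 10, 35927175 to 35931224, minus strand) by -0.09 ± 0.35 (adjusted p = 0.87) and -0.64 ± 0.32 (adjusted p = 0.12). An antisense lncRNA overlaps 3.39% of the FZD6 exon bases (BAALC-AS1) and another 7.85% of those of FZD8, and whether the counting used strand is not given in the sources used here.

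**Figure D2:**
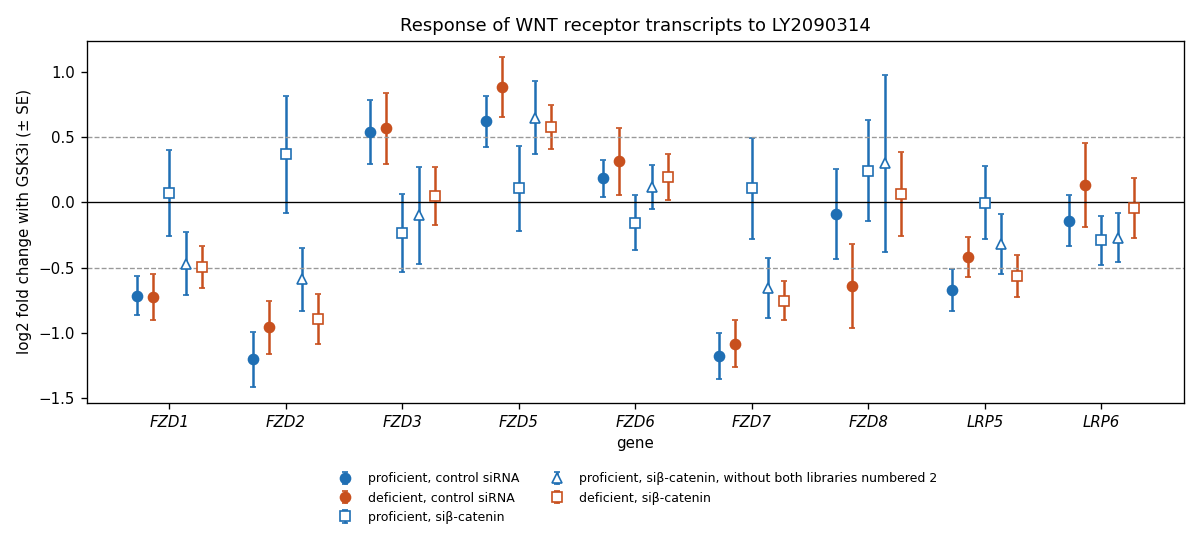
Log2 fold change with GSK3i (± SE) for each receptor, in BRCA2-proficient (blue) and BRCA2-deficient (orange) cells with control siRNA (filled) or siβ-catenin (open); dashed lines mark the size criterion of 0.5. With control siRNA, FZD1, FZD2 and FZD7 lie below the lower line in both backgrounds, as do LRP5 in proficient and FZD8 in deficient cells. FZD5 and FZD3 lie above the upper line in both. FZD3 and FZD8 were not called.

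The GSK3i response of the receptors was compared between backgrounds with an interaction term. None of the 9 was called (0.0345% of all genes were, DESeq2), and none had an unadjusted p under 0.05. In edgeR no gene at all was called, so its 0 says nothing about the receptors. The differences, deficient minus proficient, were 0.23 ± 0.31 log2 units for FZD2, 0.08 ± 0.24 for FZD7, -0.02 ± 0.21 for FZD1, 0.24 ± 0.18 for LRP5 and 0.25 ± 0.31 for FZD5. The call for LRP5 in one background and not in the other is therefore not shown to be a difference between them. The 2 comparisons share no libraries.

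**Figure D3:**
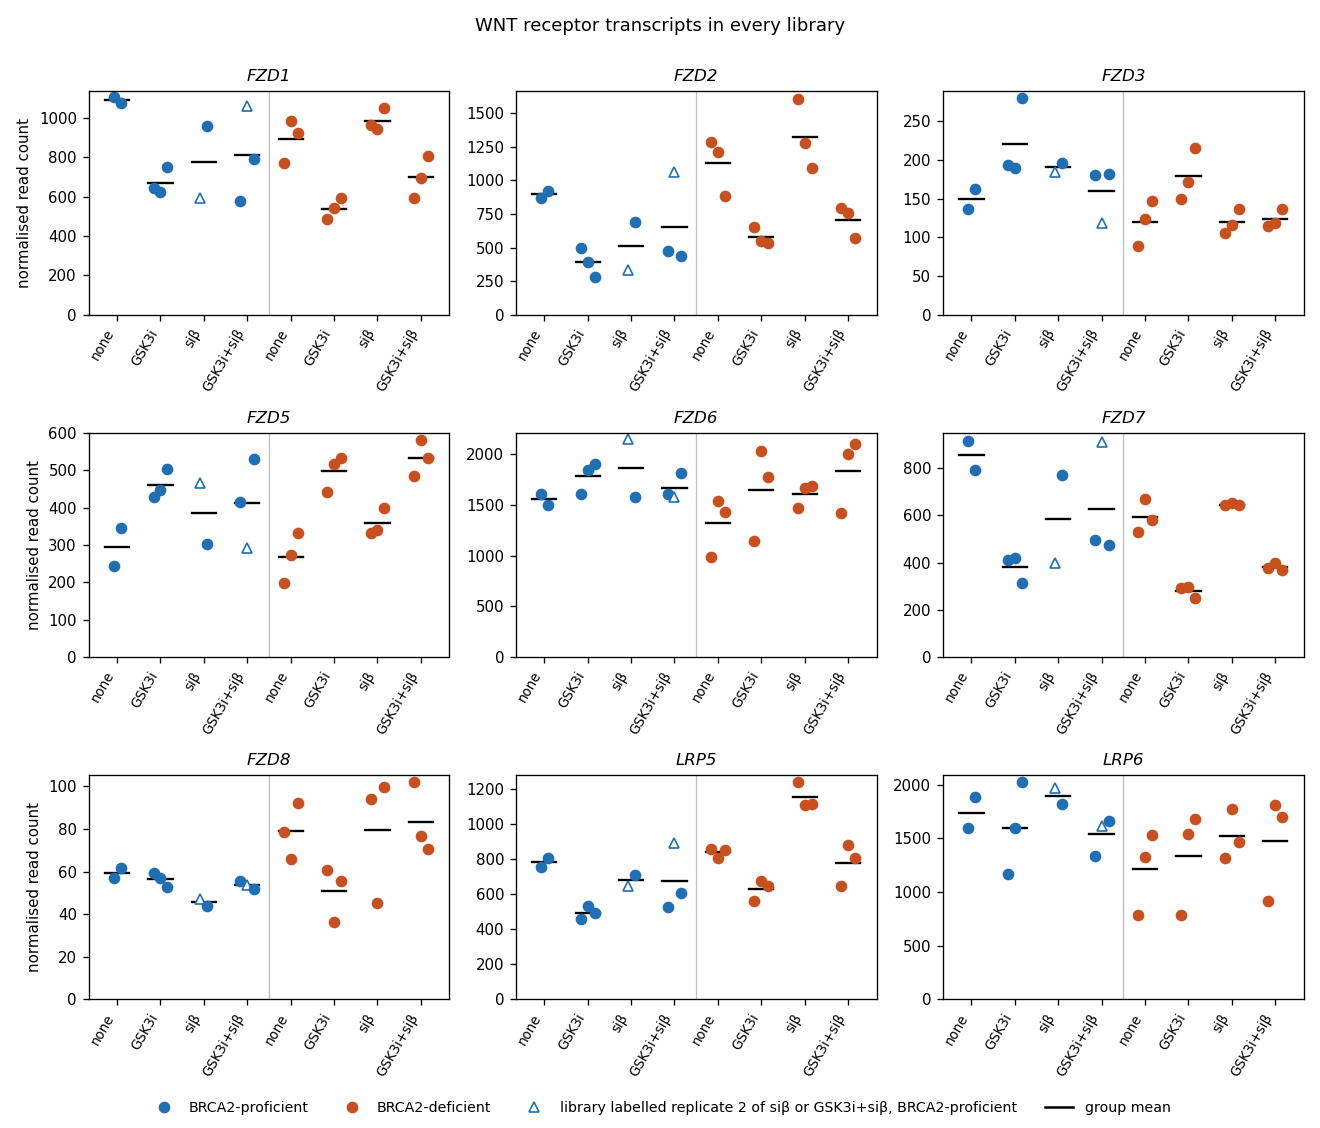
Normalised read counts (linear axis from 0) of the 9 receptors in all 22 libraries, by treatment and BRCA2 status, with group means as bars; open triangles are the 2 proficient libraries numbered 2 of the siβ-catenin groups. For FZD1, FZD2 and FZD7 the triangle of the siβ-catenin group (592, 336 and 400) lies nearer to the proficient GSK3i libraries than to the untreated ones, and the triangle of the group with both agents (1057, 1061 and 908) lies nearer to the untreated ones.

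In BRCA2-deficient cells transfected with siβ-catenin, GSK3i still lowered FZD2, FZD7 and LRP5 and raised FZD5. These are 4 of 9 receptors, 1 higher and 3 lower, against 20.1% of all genes (8.56% higher, 11.5% lower). FZD2 went from 1600, 1277 and 1091 normalised counts to 795, 756 and 574 (log2 fold change -0.90 ± 0.19, adjusted p = 7.9e-05, DESeq2). FZD7 went from 641, 651 and 642 to 376, 399 and 369 (-0.75 ± 0.15, adjusted p = 1.0e-05). LRP5 went from 1241, 1107 and 1117 to 648, 881 and 810 (-0.56 ± 0.16, adjusted p = 0.0038). All 3 were without overlap, as was FZD5, which went from 333, 341 and 400 to 486, 581 and 533 (0.58 ± 0.17, adjusted p = 0.0041).

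FZD1 went from 965, 940 and 1049 to 593, 692 and 804, and its log2 fold change of -0.49 ± 0.16 (adjusted p = 0.014, DESeq2) was just short of the size criterion. With the replicate block it was -0.50 (adjusted p = 0.00057) and passed. The calls of LRP5 and FZD5 each depended on single libraries. Without deficient siβ-catenin replicate 1 LRP5 had an adjusted p of 0.070 and FZD5 of 0.081, which left 2 receptors called, and without deficient GSK3i + siβ-catenin replicate 1 the change of LRP5 was -0.46, under the size criterion. The response with siβ-catenin was not shown to differ from that with control siRNA, since none of the 9 receptors was called by the interaction in deficient cells (0.486% of all genes were, DESeq2; 0 of 9 at unadjusted p under 0.05 and 0 by edgeR, which called 11 genes in all). The interaction estimates for these 5 receptors lay between -0.32 ± 0.26 (FZD5) and 0.32 ± 0.18 (FZD7). AXIN2 in deficient cells was at 1231 to 1747 with GSK3i and control siRNA and at 118 to 227 with GSK3i and siβ-catenin. With siβ-catenin alone it was at 80.8 to 96.9, so AXIN2 was still higher with GSK3i there, without overlap. CTNNB1 was at 977 to 1821 normalised counts with both agents in these cells. Whether remaining β-catenin took part in the receptor changes was not tested.

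In proficient cells the corresponding comparison rests on the libraries that went against their labels. With the labels as given, none of the 9 receptors was called (DESeq2; 0 at unadjusted p under 0.05), against 0.0529% of all genes, which were 9 genes, and edgeR called no gene at all. FZD2 was at 336 and 689 normalised counts with siβ-catenin and at 473, 1061 and 434 with both agents, so that the groups overlapped. FZD7 was at 400 and 770 against 494, 908 and 476, and FZD1 at 592 and 955 against 577, 1057 and 792. Without both libraries numbered 2, 1 library against 2 remained, and the calls over all genes rose from 9 to 1099. FZD7 was then called lower, at -0.66 (adjusted p = 0.037) in place of 0.11 ± 0.39, FZD2 was at -0.59 (adjusted p = 0.086), FZD1 at -0.47 (adjusted p = 0.21), LRP5 at -0.32 (adjusted p = 0.43) and FZD5 at 0.65 (adjusted p = 0.12). The lone siβ-catenin library is there assumed to vary like the others, and its own response score was -0.42.

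The interaction of GSK3i with siβ-catenin in proficient cells called FZD2, at 1.57 ± 0.55 log2 units (adjusted p = 0.048, DESeq2), which is 1 of 9 receptors against 7.63% of all genes (3.87% called higher). FZD7 had 1.29 ± 0.46 (adjusted p = 0.052), and 0.52 without both libraries numbered 2. With the replicate block FZD2 was at 1.52 ± 0.55 (adjusted p = 0.065, DESeq2) and was not called. The call for FZD2 did not hold without both libraries numbered 2 (0.61, adjusted p = 0.35), nor without the siβ-catenin one alone (1.15, adjusted p = 0.32) or the one with both agents alone (1.03, adjusted p = 0.086), nor in edgeR (adjusted p = 0.14). It was also lost when either untreated library, GSK3i replicate 2 or GSK3i replicate 3 was left out (1.38 to 1.62, adjusted p of 0.10 to 0.20). Leaving out siβ-catenin replicate 3, or GSK3i + siβ-catenin replicate 1 or 3, raised the count to between 2 and 3 receptors, with FZD7 among them each time.

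**Figure D4:**
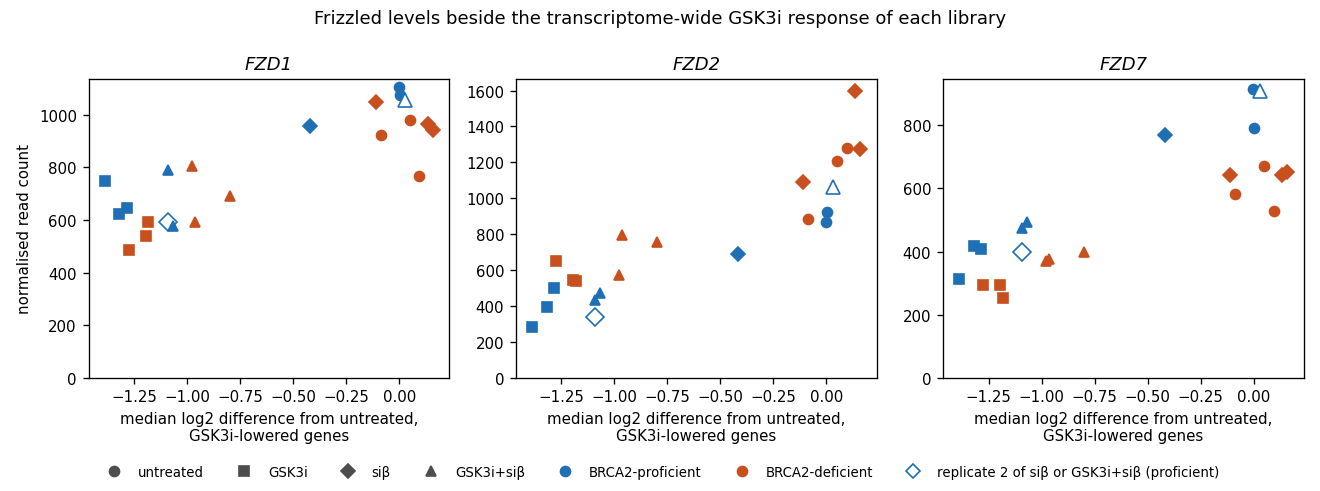
Normalised read count of FZD1, FZD2 and FZD7 (vertical, from 0) against the response score of each library (horizontal, median log2 difference from untreated cells of the same BRCA2 status over genes that GSK3i lowered in the other background). Libraries with a score of -0.799 or less, including the one labelled proficient siβ-catenin replicate 2 (open diamond), have lower FZD2 and FZD7 than the other libraries of the same background.

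The effect of siβ-catenin on cells that received GSK3i was not called for any receptor in either background. In proficient cells 0 of 9 were called against 5.1% of all genes (DESeq2; 3 of 9 at unadjusted p under 0.05, 0 by edgeR), and in deficient cells 0 of 9 against 5.52% (4 of 9 at unadjusted p under 0.05, 0 by edgeR). FZD7 came nearest in both, with 0.74 ± 0.27 (adjusted p = 0.079) in proficient and 0.44 ± 0.16 (adjusted p = 0.074) in deficient cells. In deficient cells it was at 293, 295 and 252 normalised counts with GSK3i and at 376, 399 and 369 with both agents, so the groups did not overlap. With the replicate block, adjusted p (DESeq2) in deficient cells was under 0.05 for FZD7 (0.44, adjusted p = 0.0175), FZD1 (0.36, adjusted p = 0.0147) and LRP5 (0.30, adjusted p = 0.0413). All were short of the size criterion. In proficient cells FZD7 became a call with the replicate block (0.69, adjusted p = 0.022), and without the library labelled GSK3i + siβ-catenin replicate 2 it was at 0.37 (adjusted p = 0.26). FZD2 changed by 0.77 ± 0.34 (adjusted p = 0.17) in proficient cells and by 0.23 (adjusted p = 0.69) without that library.

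FZD3 was lower with siβ-catenin under GSK3i in the estimates of both backgrounds, at -0.44 ± 0.26 (adjusted p = 0.37, DESeq2) and -0.54 ± 0.23 (adjusted p = 0.17). Without the library labelled proficient GSK3i + siβ-catenin replicate 2, the proficient estimate was -0.27 ± 0.23 (adjusted p = 0.65). The replicate block turned the deficient one into a call (-0.53, adjusted p = 0.049). In deficient cells FZD3 was at 149, 171 and 216 normalised counts with GSK3i and at 115, 118 and 137 with both agents, without overlap. FZD8, a low-count Frizzled, had 0.71 ± 0.32 (adjusted p = 0.19) there. Leaving out proficient GSK3i + siβ-catenin replicate 3 made FZD2 (1.0, adjusted p = 0.049) and FZD7 (0.91, adjusted p = 0.029) calls in proficient cells. The difference between backgrounds gave 0 of 9 calls (0.0057% of all genes, which is 1 gene, DESeq2; 1 of 9 at unadjusted p under 0.05, FZD8), and edgeR called no gene at all. For FZD8 this difference was 0.78 ± 0.38 log2 units. It was 0.78 ± 0.40 without the library labelled proficient GSK3i + siβ-catenin replicate 2, and was not called there either.

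Without GSK3i, siβ-catenin gave no receptor call in proficient cells (0 of 9 against 2.97% of all genes, DESeq2; 1 of 9 at unadjusted p under 0.05, FZD2), and edgeR called 1 gene in all, no receptor. FZD2 changed by -0.81 ± 0.32 (adjusted p = 0.15), FZD7 by -0.55 ± 0.31 (adjusted p = 0.38) and FZD1 by -0.50 ± 0.26 (adjusted p = 0.33). Both siβ-catenin libraries are among the 3 that stood apart, and with either of them alone, 1 library stands against 2 and is assumed to vary like the others. With only replicate 2 the log2 changes were -1.42 for FZD2, -1.10 for FZD7 and -0.89 for FZD1, all 3 called, while the calls over all genes rose from 524 to 2017. With only replicate 3 they were -0.38, -0.15 and -0.19, none called, with 419 calls over all genes.

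In deficient cells 0 of 9 receptors were called (2.03% of all genes, DESeq2; 1 of 9 at unadjusted p under 0.05), and edgeR called no gene at all. LRP5 had an adjusted p of 0.049, but its log2 fold change of 0.46 ± 0.14 was short of the size criterion. Its libraries had 860, 808 and 855 normalised counts with control siRNA and 1241, 1107 and 1117 with siβ-catenin, with no overlap. FZD5 followed at 0.42 ± 0.22 (adjusted p = 0.40), while FZD7 (0.12 ± 0.16) and FZD3 (-0.01 ± 0.26) were close to 0. These comparisons and those of GSK3i share the untreated libraries of each background, so they are given side by side only.

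BRCA2 depletion in otherwise untreated cells called none of the 9 receptors (6.91% of all genes were called, DESeq2; 1 of 9 at unadjusted p under 0.05, 0 by edgeR). FZD7 came nearest, at -0.55 ± 0.19 (adjusted p = 0.055), with 915 and 793 normalised counts in proficient and 528, 670 and 581 in deficient libraries, without overlap. LRP6 was at -0.54 ± 0.28 (adjusted p = 0.26) and became a call without deficient untreated replicate 3 (-0.76, adjusted p = 0.015). FZD2 pointed the other way at 0.30 ± 0.21 (adjusted p = 0.42).

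Under GSK3i, BRCA2 depletion again called 0 of 9 (6.81% of all genes, DESeq2; 3 of 9 at unadjusted p under 0.05, 0 by edgeR). FZD2 was at 497, 395 and 285 normalised counts in proficient and at 653, 547 and 537 in deficient libraries, without overlap, a log2 fold change of 0.56 ± 0.22 (adjusted p = 0.088). The replicate block made it a call (0.58, adjusted p = 0.0043), as did the fit without proficient GSK3i replicate 1 (0.75, adjusted p = 0.017). FZD7 was at -0.45 ± 0.18 (adjusted p = 0.11) and LRP5 at 0.34 ± 0.16 (adjusted p = 0.20).

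With siβ-catenin, 3 of 9 receptors were called between BRCA2-deficient and -proficient cells, 2 higher and 1 lower, against 27.4% of all genes (13.6% higher, 13.8% lower). FZD2 was at 1600, 1277 and 1091 against 336 and 689 normalised counts (1.34 ± 0.30, adjusted p = 8.3e-05, DESeq2), LRP5 at 1241, 1107 and 1117 against 650 and 712 (0.74 ± 0.17, adjusted p = 8.6e-05) and FZD3 at 106, 116 and 137 against 184 and 196 (-0.69 ± 0.25, adjusted p = 0.022). With the replicate block LRP5 was at 0.69 ± 0.28 (adjusted p = 0.075) and FZD3 at -0.61 ± 0.42 (adjusted p = 0.36), neither called. FZD2 stayed called at 1.27 ± 0.34 (adjusted p = 0.0033). Without the library labelled proficient siβ-catenin replicate 2, 1 proficient library is left, which has a response score of -0.42 and is assumed to vary like the others, and 3427 genes were called in place of 4888. In that fit FZD2 was at 0.91 (adjusted p = 0.0026), LRP5 at 0.66 (adjusted p = 0.013) and FZD3 at -0.75 (adjusted p = 0.11). FZD3 also lost its call without either of deficient siβ-catenin replicates 1 and 2 or proficient replicate 3, with an adjusted p of 0.12 to 0.20. Without proficient replicate 3, which leaves only the library with a GSK3i-like score, FZD1 (0.70, adjusted p = 0.0076) and FZD7 (0.66, adjusted p = 0.020) were added. Without deficient replicate 2, FZD8 was added at 1.06 (adjusted p = 0.050).

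With both agents, 0 of 9 receptors were called (7.74% of all genes, DESeq2; 2 of 9 at unadjusted p under 0.05, 0 by edgeR). FZD7 was at 376, 399 and 369 in deficient against 494, 908 and 476 in proficient libraries (-0.72 ± 0.26, adjusted p = 0.061), and it became a call with the replicate block (-0.65, adjusted p = 0.035) and without proficient GSK3i + siβ-catenin replicate 3 (-0.89, adjusted p = 0.034). Without the library labelled replicate 2 it was at -0.36 (adjusted p = 0.19), and FZD2 moved from 0.10 ± 0.31 (adjusted p = 0.91) to 0.63 (adjusted p = 0.021) and was called. FZD2 and LRP5 had positive estimates and FZD3 and LRP6 negative ones in each of the 4 BRCA2 comparisons. In the fits with all libraries and no block, only those of FZD2, LRP5 and FZD3 with siβ-catenin were called. Some were smaller than their SE, such as 0.08 ± 0.16 for LRP5 in untreated cells and 0.10 ± 0.31 for FZD2 with both agents.

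**Figure D5:**
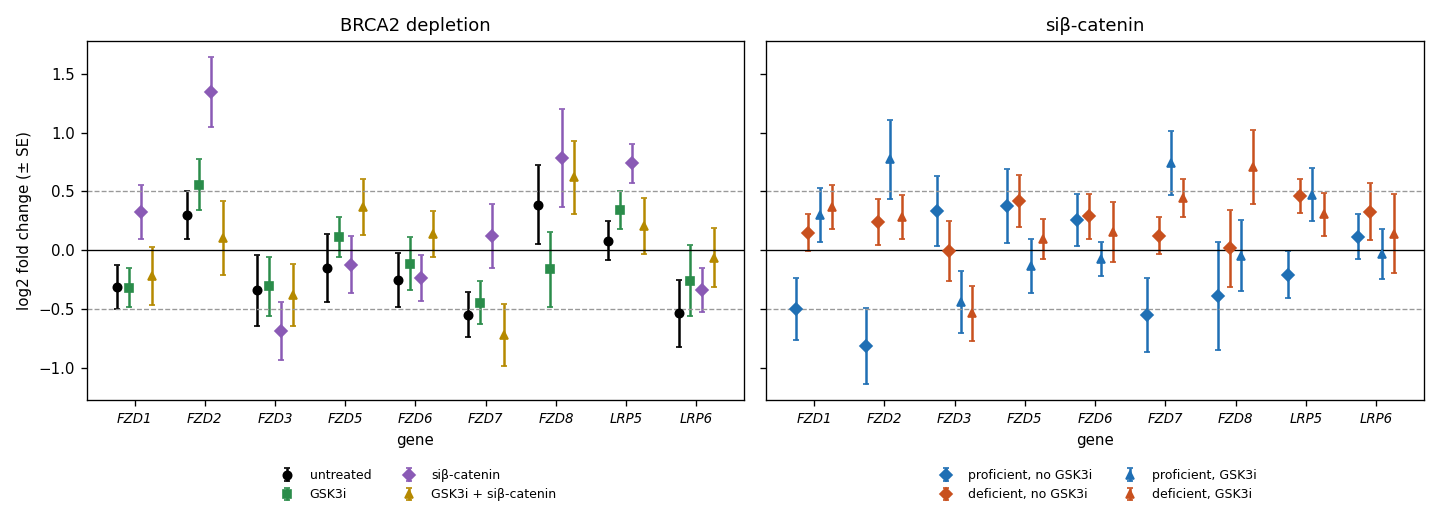
Log2 fold change (± SE) of the 9 receptors with BRCA2 depletion under each of 4 treatments (left) and with siβ-catenin in each background with and without GSK3i (right); dashed lines mark the size criterion of 0.5. FZD2 reaches 1.34 with BRCA2 depletion in siβ-catenin-treated cells, a value that includes the library labelled proficient siβ-catenin replicate 2.

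Libraries that share a replicate number varied together for some receptors. In the 6 groups that have a library numbered 1, that library was the lowest of its group for LRP6 in 6 of 6, for FZD6 and FZD5 in 5 of 6, and the highest for FZD2 in 5 of 6 and for FZD8 in 4 of 6. LRP6 was at 782 and 785 in the deficient untreated and GSK3i libraries numbered 1 and at 1325 to 1675 in the others of those 2 groups. What the number stands for is not given in the labels.

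Other genes of the pathway at the membrane were taken from a list of 56, of which 53 were in the count table. With GSK3i in proficient cells 33 of them were tested, 4 were called higher and 7 lower, against 26.1% of all genes, and in deficient cells 35 were tested, 6 higher and 7 lower, against 25.4%. ZNRF3, the ligase that clears Frizzleds from the surface, rose by 1.23 ± 0.18 (adjusted p = 1.2e-10, DESeq2) and 1.59 ± 0.23 (adjusted p = 5.2e-10). KREMEN1, a receptor for the LRP inhibitor DKK1, fell, with log2 fold changes of -1.18 ± 0.19 (adjusted p = 1.1e-08) and -1.01 ± 0.20 (adjusted p = 5.9e-06). Under GSK3i, siβ-catenin lowered ZNRF3 in proficient (-0.77 ± 0.23, adjusted p = 0.019) and deficient cells (-0.69 ± 0.20, adjusted p = 0.012), and without the library labelled proficient GSK3i + siβ-catenin replicate 2 the proficient value was -0.56 ± 0.16 (adjusted p = 0.010). KREMEN1 was called higher in proficient cells (0.83 ± 0.26, adjusted p = 0.032) but not without that library (0.51 ± 0.19, adjusted p = 0.088), and it was not called in deficient cells (0.58 ± 0.21, adjusted p = 0.081).

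Among the ligands 18 were in the table, with 5 of 9 tested called in proficient cells under GSK3i (WNT10B and WNT16 higher, WNT3, WNT5A and WNT10A lower) and 4 of 10 in deficient cells (WNT10B and WNT16 higher, WNT5A and WNT10A lower), against the same 26.1% and 25.4% of all genes. WNT5B, a non-canonical ligand, was at 1064 to 3948 normalised counts and was called in neither. Of the other receptors, FZD4 ranged from 60.1 to 102 normalised counts, FZD9 from 115 to 261 and RYK from 2474 to 3162, and PTK7 was lower with GSK3i in both backgrounds. In siβ-catenin-treated deficient cells GSK3i lowered WNT10A (-1.45 ± 0.24, adjusted p = 9.0e-08) and PTK7 (-1.21 ± 0.24, adjusted p = 8.8e-06), 2 of 16 calls among 37 tested genes (6 higher, 10 lower), against 20.1% of all genes. DKK1, which blocks LRP5 and LRP6, was higher with BRCA2 depletion in untreated (1.36 ± 0.30, adjusted p = 0.00037) and GSK3i-treated cells (1.03 ± 0.31, adjusted p = 0.014). It was not called with BRCA2 depletion in cells with siβ-catenin or with both agents. SFRP1, a secreted WNT-binding inhibitor, was lower with BRCA2 depletion under GSK3i (-0.53 ± 0.14, adjusted p = 0.0048) and with both agents (-1.003 ± 0.28, adjusted p = 0.0087). The latter was -0.69 ± 0.25 (adjusted p = 0.045) without the library labelled proficient GSK3i + siβ-catenin replicate 2. SFRP1 was not called with BRCA2 depletion in untreated cells or in cells with siβ-catenin alone.

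Among the receptors themselves, over the 8 group means of log2 normalised counts, FZD1 and FZD7 followed each other most closely (Pearson r = 0.958), then FZD2 and LRP5 (0.930). FZD3 ran opposite to FZD2 (r = -0.902), LRP5 (-0.860) and FZD8 (-0.856), as did FZD5 to FZD7 (-0.818) and FZD1 (-0.810). There are 8 points, and 2 of them include the libraries that went against their labels. Without those libraries the same 7 pairs had r of 0.966 and 0.963 and of -0.841, -0.841, -0.881, -0.842 and -0.845. Of 11898 genes with a mean of at least 100 normalised counts, those most like each receptor had r of 0.905 to 0.996. For FZD2 they were ATOH8 and SHKBP1 (0.996 and 0.994), for LRP5 RAB5B and CELSR1 (both 0.995), for FZD7 GADD45B and ADD3 (0.989 and 0.983) and for FZD1 MAMDC4 (0.980). FZD5 was most like INTS6L (0.989) and DVL1 (0.984), the latter a Dishevelled protein that binds Frizzled tails. For FZD3 it was ZNF614 (0.992), for FZD6 CCNT2 and FAM91A1 (0.984 and 0.977), for LRP6 TNRC6A and SLC23A2 (0.988 and 0.987) and for FZD8 TNFRSF25 and ANXA9 (0.907 and 0.905). Without the libraries numbered 2 these values were 0.866 to 0.992, apart from CCNT2 with FZD6, which dropped to 0.715.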

How the data were processed

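The authors deposited raw read counts per gene from strand-specific poly(A) RNA-seq (75 bp paired ends). Reads were aligned to GRCh37 (hg19) with HISAT2 2.0.4, duplicates were removed with Picard 1.9.2 and reads unique to Ensembl genes were counted with featureCounts 1.5.0. These versions are those of the submitters' processing notes, and the study's reporting summary names other ones. The Ensembl release and the strand setting are not given in the sources used here. Removing duplicates can lower the counts of abundant genes. Of the 37908 genes, 29629 matched a symbol. Each pair of groups was fitted on its own libraries with DESeq2 1.42.0 (R 4.3.3, Wald test, no shrinkage), after dropping genes with fewer than 10 counts in more than 3 libraries. Interactions were fitted on genes that reached 10 counts in 3 or more libraries. The tool and the criteria for a call between 2 groups were taken from the study, with another DESeq2 version, the filter was read from its wording, and the interactions were added here. An alternative was edgeR 4.0.16 (quasi-likelihood, TMM), and others were TMM factors, no filter, one model over all groups, a replicate block and leaving out each library. Scripts were tested on simulated counts.

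All receptors are named. The receptors, gene lists and tests were chosen with earlier results of these data known. From the pathway list, at most the 2 called genes with the largest change and a mean of at least 100 normalised counts were named with full values per comparison, and for likeness the 2 genes with the highest r, of which 1 each for FZD1 and FZD3 is not reported here. Deviations from the group means correlated between same-numbered libraries by 0.141 to 0.868 in all 7 comparisons with 3 shared numbers, so the numbers pair those libraries, and by -0.418 to 0.259 in those with 2. The values reported carry no block, and blocked values stand beside them where a call changes. Replicates differed by more than sampling noise in every group (chi-square per gene 9.81 to 57.6), so none was merged. The libraries numbered 2 that went against their labels were left out, together or where a comparison holds 1 of them, as an alternative chosen after seeing the data.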

Additional observations from a re-analysis of the deposited data

Results flagged for a closer look

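The GSK3i effect on FZD2 differed between siβ-catenin and control siRNA in BRCA2-proficient cells by the interaction term, at 1.57 log2 units (adjusted p = 0.048, DESeq2). The libraries labelled replicate 2 of both siβ-catenin groups carry much of it, and without them the value was 0.61 (adjusted p = 0.35).

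For 3 receptors every siβ-catenin library without GSK3i was above the mean of the untreated libraries in deficient cells and below it in proficient cells. The deficient minus proficient difference of these effects was 0.69 log2 units for FZD1, 0.74 for FZD7 and 0.66 for LRP5, as differences of mean log2(normalised count + 1) and not as fitted fold changes. These differences were not tested. The proficient siβ-catenin group holds 2 libraries, with response scores of -1.09 and -0.42. Without the library labelled proficient siβ-catenin replicate 2, 1 library of that group is left. The fitted proficient changes were then -0.19 for FZD1, -0.15 for FZD7 and -0.13 for LRP5, against -0.50, -0.55 and -0.21 with it. The fitted deficient changes were 0.15, 0.12 and 0.46.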

How the results depend on the processing

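Of 193 recounts of the called receptors under other settings, 165 stayed within 1.5 times the reported count. Counts of 0 that stayed 0 are included in the 165. Of 1737 single-receptor recounts 1686 kept their side of the criteria, 20 lost a call, 30 gained one and 1 reversed, which was FZD7 for GSK3i after siβ-catenin in proficient cells without both libraries numbered 2 (-0.66, 1 receptor called in place of 0, and 1099 genes in place of 9). A further 95 changed sign without being called in either fit. Most receptor results were not called, so keeping a side mostly meant staying uncalled, which says little about how firm the calls are. TMM factors moved the median of all genes by at most 0.025 log2 units.

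With the replicate block the count went from 0 to 1 for siβ-catenin under GSK3i in proficient cells (FZD7, with calls over all genes going from 836 to 892) and in deficient cells (FZD3, 939 to 1341), and for BRCA2 depletion under GSK3i (FZD2, 1112 to 1266) and with both agents (FZD7, 1319 to 1485). With the same block it went from 3 to 1 for BRCA2 depletion with siβ-catenin (FZD3 at adjusted p = 0.36 and LRP5 at 0.075, DESeq2, with 4888 to 2020 genes) and from 1 to 0 for the interaction of GSK3i with siβ-catenin in proficient cells (1305 to 1044 genes). The last 2 comparisons rest on libraries that share only a number. Beside FZD3 in deficient cells with GSK3i and FZD1 in deficient cells with GSK3i after siβ-catenin, both gained, the block changed no other receptor call.

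One model over all groups gave 1 receptor for siβ-catenin under GSK3i in proficient cells and 1 for BRCA2 depletion with both agents (0 reported, FZD7 each time, with 1249 and 1814 genes called), and 2 for the interaction in proficient cells (1 reported, 2149 genes). That interaction gave 0 with edgeR (4 genes called) and 0 without both libraries numbered 2 (592 genes). In edgeR FZD3 was also lost for BRCA2 depletion with siβ-catenin (adjusted p = 0.0502).

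Leaving out 1 library at a time gave 2 to 5 receptors for GSK3i after siβ-catenin in deficient cells (2217 to 3575 genes called), 0 to 2 for siβ-catenin under GSK3i in proficient cells (292 to 855), 0 to 3 for siβ-catenin alone in proficient cells (21 to 2017), 0 to 1 for BRCA2 depletion in untreated (183 to 2147), GSK3i-treated (608 to 1302) and doubly treated cells (748 to 1603), and 0 to 3 for the interaction in proficient cells (102 to 2251). The causes were not tested. Exon length taken from the longest transcript gave 39.1 in place of 35.9 for the ratio of FZD6 to FZD3. For FZD3 the length went only from 13786 to 13770 bases, so this setting does not test the length used for that gene. Precision is limited by 2 or 3 libraries a group, and for FZD8 also by 41 to 127 counts a library.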
